A study of Drosophila melanogaster with 24 samples.

Results

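The standard proteasome subunit genes are the Drosophila melanogaster genes that encode the subunits of the proteasome made in all tissues. They were taken as every gene row whose symbol starts with Prosalpha, Prosbeta, Rpn or Rpt and a digit, with no T or R after the subunit number, which leaves out the testis paralogs. This rule used names only, and it found 32 of the 15406 genes in the count files. The 32 genes comprise 7 of the alpha ring, 7 of the beta ring, 6 ATPases of the base, 4 other base subunits and 8 subunits of the lid. In a later annotation matched by gene identifier, 4 of them lie on chromosome arm 2L, 10 on 2R, 5 on 3L, 9 on 3R and 4 on X.

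The proteasome degrades proteins that carry a ubiquitin chain. Its core particle is a barrel in which alpha rings gate the entry and beta rings hold the proteolytic sites, on Prosbeta1 (caspase-like activity), Prosbeta2 (trypsin-like) and Prosbeta5 (chymotrypsin-like). A regulatory particle caps the barrel: its base unfolds substrates with a ring of Rpt ATPases, and its lid carries Rpn11, the enzyme that removes ubiquitin. Rpn1, Rpn2, Rpn10 and Rpn13 belong to the base, where Rpn10 and Rpn13 are ubiquitin receptors. In Drosophila testes, several subunits have paralogs that are expressed during male germ cell development.

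RNA-seq was done on gonads in 12 groups of 2 independent dissections, 24 libraries in all. Among the 12 ovary libraries, those named tra2ts came from females of genotype XX; tra2[ts1]/tra2[ts2] in a w1118 background, in which both alleles of tra2, a splicing factor of sex determination, fail at the restrictive temperature. Those named w1118 came from females homozygous for w1118. Among the 12 testis libraries, those named TraF came from XY males of genotype y1 w*; P{UAS-Tra.F}20J7; P{tubP-GAL80ts}7/P{tubP-GAL4}LL7, which express the female form of tra when heat inactivates the repressor GAL80ts. Those named Control came from males with P{tubP-GAL80ts}7/P{tubP-GAL4}LL7 alone, and the tubP promoter of driver and repressor is active in most cells. Flies were raised at 18 °C to an age of 5 days and then kept for 0, 12 or 24 h at 29 °C (tra2ts and w1118) or 30 °C (TraF and Control) per the extraction notes; the treatment text has 29 °C for all. The treatment text also gives 25 °C as the dissection temperature for all samples. Egg chambers of stage 10 and older had been removed from the ovaries. The study asked which transcripts respond to a switch in the isoform of the sex determination protein DSX. The ovary and testis flies differ in sex, strain and shift temperature as well as tissue, and these cannot be told apart here.

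Total counts on genes ran from 16136939 to 32782474 per library. Levels are CPM, read counts brought to a common library size with edgeR's TMM factors over all 24 libraries. A gene is called where its p from the quasi-likelihood test of edgeR, adjusted over all genes tested by the Benjamini-Hochberg method, is under 0.05. The tissue labels fit the markers of spermatids and of ovarian soma. The summed level of 5 spermatid markers was 0 to 0.224 CPM in ovary libraries and 7181 to 12570 CPM in testis libraries. That of 5 markers of ovarian soma was 11920 to 32730 CPM in ovary libraries and 0.732 to 3.04 CPM in testis libraries. The 4 markers listed for testis soma (tj, eya, upd1, zfh1) went the other way. They summed to 138 to 273 CPM in ovary libraries and 99.1 to 131 CPM in testis libraries. The gene tra, carried by the transgene, was at 21.1 and 25.5 CPM in TraF testes at 0 h, 263 and 239 CPM at 12 h, and 264 and 313 CPM at 24 h, against 5.86 to 12.1 CPM in Control testes. Control testis 12 h replicate 1 held 2154 CPM of 4 accessory gland markers, against at most 13.7 CPM in the other 23 libraries. The part of this library's accessory gland RNA in the results was not tested. Some results are also given without this library and Control testis 0 h replicate 1 together. A call lost that way cannot be assigned to either library or to accessory gland RNA. The kit does not mark strand, and exons of Rpt4 (93 bases, with wuho), Rpt6 (182, CG1801), Prosbeta2 (82, Reck) and Prosbeta5 (81, Lsm10) overlap a gene on the other strand, so their reads there cannot be told apart.

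The subunit genes also set 3 ovary libraries apart: tra2ts 24 h replicate 2, w1118 24 h replicate 1 and w1118 0 h replicate 2. In these, the long genes Rpn1 and Rpn2, scaffold subunits of the base, were low beside the short genes of the alpha ring. The summed CPM of Rpn1 and Rpn2 was 0.256, 0.307 and 0.383 of the alpha ring sum in these libraries, and 0.469 to 0.615 in the other 9 ovary libraries. Reads outside annotated genes were 2.47%, 2.48% and 1.56% of reads in these libraries, against 1.07% to 1.58% in the other 9. Several results below are also given without these libraries, a choice made after the data were seen. Leaving them out leaves 1 library in each of the tra2ts 24 h, w1118 24 h and w1118 0 h groups. The libraries were picked by values of the subunit genes themselves, so results without them are not independent checks of these genes.

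Among the 32 genes, 31 had at least 10 reads in every library. The exception was Prosalpha1, of the alpha ring, with 2 to 13 reads per ovary library and 4 to 12 per testis library. Its duplicate Prosalpha1R had 0 reads in all 24 libraries. The copies are near-identical, so reads that fit both may have been left uncounted, and the level of Prosalpha1 is uncertain.

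Per kilobase of exon, the median level in ovaries was 257 CPM per kb for core particle genes and 160 CPM per kb for regulatory particle genes, and the ranges overlapped. As means over the 12 ovary libraries, the 13 core genes other than Prosalpha1 spanned 218 CPM per kb (Prosbeta7) to 322 CPM per kb (Prosalpha4). The 18 regulatory genes spanned 121 CPM per kb (Rpn2) to 242 CPM per kb (Rpn11), so that Rpn11 lay above the lowest core genes. Over the 9 other ovary libraries the median was 246 CPM per kb for core genes and 162 CPM per kb for regulatory genes. Core genes are also shorter, with 815 to 1215 bases of exon, against 995 to 3412 bases for regulatory genes, and the part of length in this difference was not tested. In testes the same core genes spanned 60.3 CPM per kb (Prosalpha4) to 383 CPM per kb (Prosbeta3), and the regulatory genes 21.9 CPM per kb (Rpt3) to 256 CPM per kb (Rpn6). Core and regulatory genes overlapped more widely in testes.

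The order of the genes differed between the tissues. In w1118 ovaries the levels followed each other without a gap, from Prosalpha4 at 334 ± 57.7 CPM per kb to Rpn2 at 121 ± 20.5 CPM per kb (SD, n = 6 libraries). Each gene overlapped the next in its range over the libraries, except Rpn2 and the lowest gene, Prosalpha1. In Control testes 4 neighbours in the order did not overlap. There Rpn9 at 145 ± 5.09 CPM per kb stood above Rpn5 at 98.6 ± 6.04 CPM per kb, Prosalpha4 at 62.6 ± 9.09 CPM per kb above Rpt4 at 39.6 ± 2.27 CPM per kb, Rpn12 at 34.4 ± 4.41 CPM per kb above Rpt3 at 22.8 ± 2.12 CPM per kb, and Rpt3 above Prosalpha1 (SD, n = 6 libraries).

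**Figure D1:**
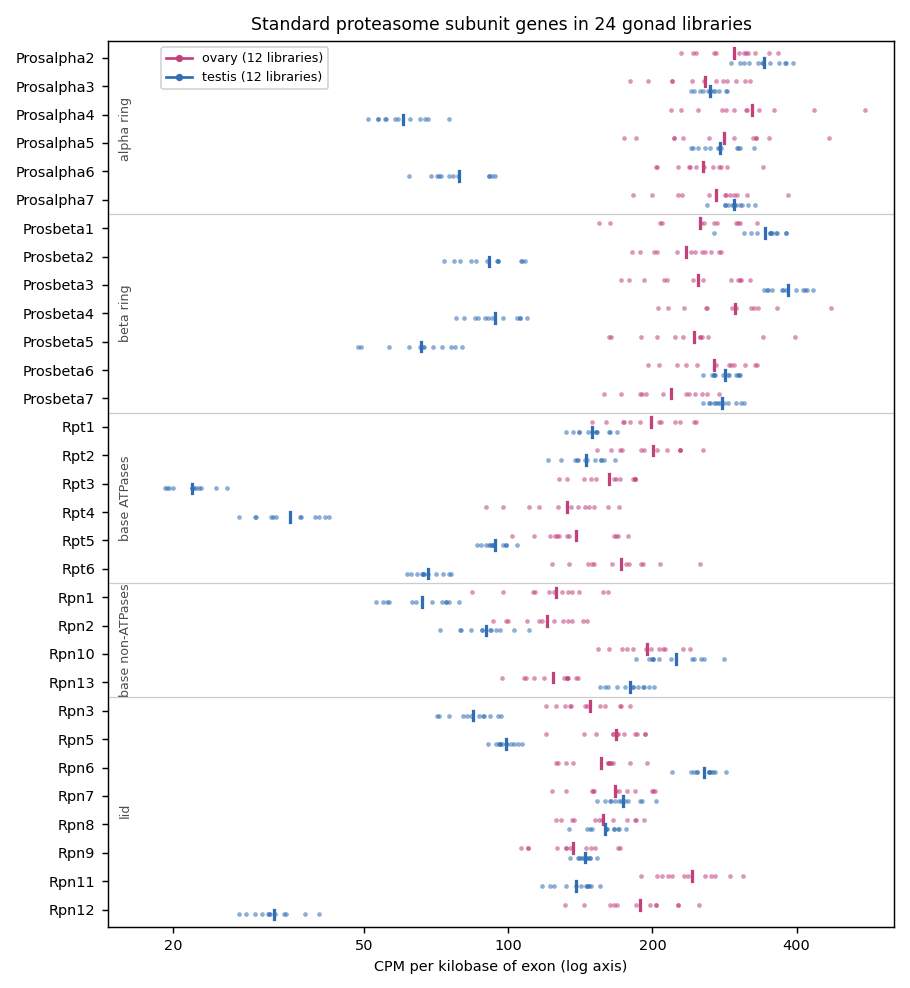
Levels of 31 standard proteasome subunit genes (Prosalpha1 left out) on a log axis of CPM per kilobase of exon, grouped by subcomplex. Each point is a library and each bar the mean of 12 libraries, ovary above testis; ovary means lie between 121 and 322 CPM per kb, and testis means between 21.9 and 383 CPM per kb.

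Ovary was set against testis in the control genotypes (w1118 ovaries over Control testes, all times pooled) and again in the experimental genotypes (tra2ts ovaries over TraF testes), with all 24 libraries in 1 fit. In the control genotypes 17 subunit genes were higher in ovary, 7 were lower and 8 were not called. Of the 12411 genes tested, 35.8% were called higher and 54% lower. In the experimental genotypes 17 were higher and 5 lower, where 36.3% of genes were called higher and 52.4% lower. All 17 higher genes were higher in both comparisons, 5 were lower in both, and 0 went opposite ways. The share of all genes called alike in both comparisons was not computed. Over the 32 genes the median log2 fold change was 0.37 in the control genotypes and 0.44 in the experimental ones, while over all genes tested it was -0.81 and -0.68. In bulk tissue, fewer cells of a type and less RNA per cell cannot be told apart.

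The split of higher and lower calls depended on how libraries of such unlike tissues were scaled. With RLE scaling it was 13 higher and 14 lower in the control genotypes and 14 of each in the experimental ones, and with scaling by total count it was 18 against 3 and 20 against 3. DESeq2 gave 13 against 14 and 14 against 13. The median of all genes moved with it, to -1.13 with RLE and -0.60 with total count in the control genotypes, while the median of the subunit genes stayed 1.19 above the median of all genes under each. Over TMM, RLE, total count and DESeq2 fits of both comparisons, 13 subunit genes were called higher in ovary in all 8 and 3 (Prosbeta3, Rpn6, Rpn13) were called lower in all 8. Prosbeta6, Rpn7 and Rpn8 were called higher with total count scaling and lower with RLE in the experimental genotypes. Without the 3 ovary libraries that stood apart, 18 were higher and 6 lower in the control genotypes, and 17 were higher and 11 lower in the experimental ones. Without Control testis 12 h replicate 1 and 0 h replicate 1, left out together after the data were seen, 17 were higher and 3 lower in the control genotypes. With no filter on low counts these numbers were 17 and 4. The shares of all genes called under these settings are not given here, so the counts describe the subunit genes only. Most genes differ between these tissues: with TMM only 1270 of 12411 were not called in the control genotypes.

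A scaling factor moves the log2 values of all subunit genes by about the same amount, while counts on either side of 0 move with it. In the control genotypes the log2 fold changes reached from -0.85 (Prosalpha1, not called) to 2.85 (Rpt3). In 13 of the 32 genes all 12 ovary libraries lay above all 12 testis libraries in CPM, and in 3 all lay below; over all genes tested these shares were 26% and 43.4%. With RLE scaling 9 lay above and 5 below (21.9% and 47% of all genes), and with total count scaling 16 lay above and 0 below (29.2% and 40.4%).

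**Figure D2:**
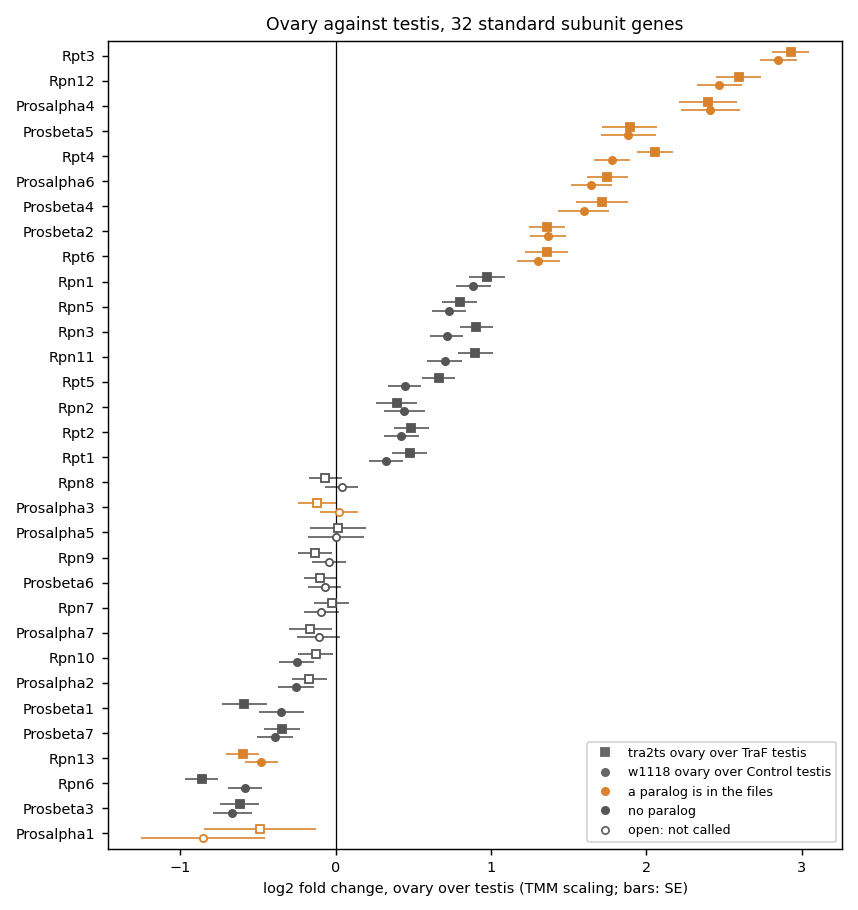
Log2 fold change of each of the 32 subunit genes, ovary over testis, with the standard error of the edgeR fit, for tra2ts ovary over TraF testis (squares) and w1118 ovary over Control testis (circles). The 9 highest genes, from Rpt3 at 2.85 to Rpt6 at 1.31 in the control genotypes, all have a paralog in the files (orange).

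In the beta ring, the catalytic genes parted. Prosbeta5, the chymotrypsin-like subunit, had 215, 288 and 388 CPM as lowest, median and highest of 6 w1118 ovaries, against 64.3, 76.9 and 91.4 CPM in Control testes. No ovary library overlapped a testis library, and the gene was called higher in ovary (log2 1.89, SE 0.175, adjusted p 1.19e-08, edgeR). Prosbeta2, the trypsin-like subunit, had 208, 256 and 287 CPM in w1118 ovaries and 79.8, 98.3 and 112 CPM in Control testes, also without overlap (log2 1.36, SE 0.116, adjusted p 3.23e-09, edgeR). Prosbeta1, the caspase-like subunit, went the other way, at 177, 244 and 281 CPM in w1118 ovaries and 265, 305 and 324 CPM in Control testes. Its call (log2 -0.35, SE 0.144, adjusted p 0.03, edgeR) was lost with total count scaling (adjusted p 0.275) and when any of 7 libraries was left out (adjusted p up to 0.115). The 7 were both w1118 ovary libraries at 0 h, replicate 1 of either genotype at 12 h, replicate 2 of either genotype at 24 h, and the second Control testis library at 0 h. In the experimental genotypes Prosbeta1 had a log2 of -0.59 (SE 0.145, adjusted p 0.00105, edgeR), and this call was lost with total count scaling too (log2 -0.27, adjusted p 0.0502). Without the 2 Control testis libraries it was not called in the control genotypes (log2 -0.23, adjusted p 0.266).

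Of the other beta genes, Prosbeta4, a structural subunit, was higher in ovary (log2 1.60, SE 0.165). Prosbeta3, also structural, had 163, 228 and 292 CPM in w1118 ovaries against 341, 356 and 385 CPM in Control testes. All ovary values lay below all testis values, and the gene was lower in ovary (log2 -0.66, SE 0.128, adjusted p 9.93e-05, edgeR). Prosbeta7 was lower too (log2 -0.39, SE 0.116), a call lost with total count scaling (adjusted p 0.102) and without the 2 Control testis libraries (log2 -0.26, adjusted p 0.108), and Prosbeta6, at a log2 of -0.069, was not called.

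In the alpha ring, Prosalpha4 and Prosalpha6 stood apart from the rest. Prosalpha4 had 329, 381 and 512 CPM in w1118 ovaries and 59.8, 74.2 and 88.6 CPM in Control testes (log2 2.41, SE 0.189, adjusted p 1.07e-09, edgeR). Prosalpha6 had 256, 275 and 306 CPM in w1118 ovaries and 75.9, 89.9 and 100.3 CPM in Control testes (log2 1.65, SE 0.132, adjusted p 1.54e-09, edgeR). Neither gene overlapped between the tissues. Prosalpha2 was lower in ovary in the control genotypes (log2 -0.26, SE 0.114, adjusted p 0.0441, edgeR) and not called in the experimental ones (log2 -0.17, adjusted p 0.17). These calls followed the scaling: with total count Prosalpha2 was called in neither (control adjusted p 0.675), and with RLE it was lower in both (experimental log2 -0.51, adjusted p 6.39e-04). Without the 3 ovary libraries it was not called in the control genotypes (log2 -0.10, adjusted p 0.332) and was called lower in the experimental ones (log2 -0.26, adjusted p 0.0163). Prosalpha3, Prosalpha5 and Prosalpha7 were not called in either, with log2 values between -0.16 and 0.022.

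All 6 ATPases of the base were higher in ovary in both comparisons. Rpt3 showed the widest difference of the 32 genes, with 206, 259 and 286 CPM in w1118 ovaries against 30.9, 34.5 and 40.2 CPM in Control testes (log2 2.85, SE 0.118, adjusted p 1.15e-13, edgeR). In tra2ts ovaries Rpt3 had 198, 249 and 286 CPM, against 29.8, 32.1 and 35.5 CPM in TraF testes (log2 2.93, SE 0.118). Rpt4 had 132, 209 and 250 CPM in w1118 ovaries and 54.0, 58.5 and 62.0 CPM in Control testes (log2 1.78, SE 0.117), and Rpt6 followed (log2 1.31, SE 0.138). Rpt1, Rpt2 and Rpt5 differed less, by log2 values of 0.32 to 0.44 in the control genotypes, and each of these 3 was not called under at least 1 scaling.

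The base subunits that are not ATPases were divided. Rpn1 was higher in ovary, at 256, 399 and 479 CPM in w1118 ovaries and 161, 218 and 240 CPM in Control testes (log2 0.89, SE 0.115), and Rpn2 was higher by a log2 of 0.44 (SE 0.133). The ubiquitin receptors lay lower in ovary. Rpn13 had 189, 220 and 234 CPM in w1118 ovaries and 260, 303 and 337 CPM in Control testes (log2 -0.48, SE 0.106, adjusted p 3.99e-04, edgeR). Rpn10 had 220, 287 and 329 CPM in w1118 ovaries and 285, 329 and 400.4 CPM in Control testes, which overlapped. Its call (log2 -0.25, SE 0.113, adjusted p 0.0446, edgeR) was lost when any library but w1118 24 h replicate 2 or Control 12 h replicate 1 was left out (adjusted p up to 0.252). Without the 3 ovary libraries the log2 was -0.057 (adjusted p 0.559), and the gene was not called in the experimental genotypes.

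In the lid, Rpn12 had 166, 190 and 225 CPM in w1118 ovaries against 27.3, 34.0 and 40.1 CPM in Control testes, the second widest difference after Rpt3 (log2 2.47, SE 0.143, adjusted p 1.40e-11, edgeR). Rpn11, the deubiquitylase, had 253, 284 and 350 CPM in w1118 ovaries and 171, 178 and 187 CPM in Control testes, without overlap (log2 0.70, SE 0.112, adjusted p 1.34e-05, edgeR). Rpn3 and Rpn5, structural lid subunits, were higher in ovary by log2 values of 0.71 and 0.73. Rpn6, another structural subunit, was lower, at 266, 320 and 380 CPM in w1118 ovaries and 427, 479 and 555 CPM in Control testes (log2 -0.58, SE 0.107, adjusted p 6.48e-05, edgeR). Rpn7, Rpn8 and Rpn9 were not called in either comparison.

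Genes with a paralog and genes without one differed in these values. Of the 12 subunit genes with a paralog in the files, 9 were higher in ovary and 1 (Rpn13) was lower in the control genotypes, with a median log2 of 1.62. Of the 20 without, 8 were higher and 6 lower, with a median log2 of -0.019. The 9 largest differences all belonged to genes with a paralog, and the largest among the others was that of Rpn1, at 0.89. The 4 subunit genes on the X chromosome (Prosalpha4, Rpt3, Rpt4, Rpt6) were all among these 9.

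The paralogs had few or no reads in ovaries. Leaving aside Prosalpha1R, whose 0 is uncertain, 8 of the other 14 had 0 reads over all 12 ovary libraries, which allows up to 0.0102 CPM (3 counts over the 12 libraries). The largest share of a family that paralogs held in ovaries was 0.864%, for Rpn12. In Control testes the paralogs made up 84.4% of the summed CPM per kb of their family for Rpn12, 83.1% for Prosbeta5, 82.8% for Rpt3, 75.3% for Prosalpha4, 74.5% for Prosalpha6, 73.5% for Prosbeta4, 69% for Prosbeta2, 65.7% for Rpt6 and 62.9% for Rpt4. These are the 9 standard genes with the largest ovary excess. The paralog share was 31.9% for Rpn13 and 17.3% for Prosalpha3, the families whose standard gene was lower in ovary or not called. How reads that fit both a standard gene and its paralog were counted is not given in the sources used here.

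**Figure D3:**
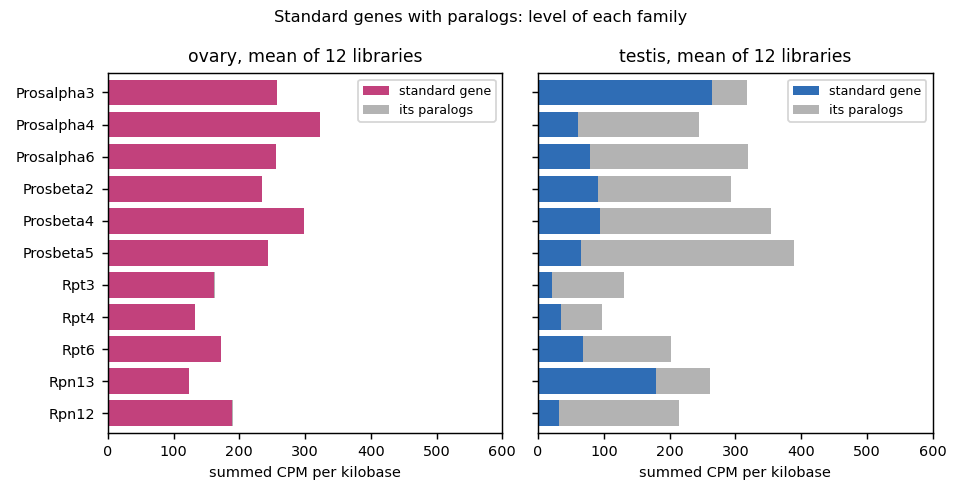
Mean level over 12 ovary (left) and 12 testis (right) libraries of 11 standard genes (coloured) and of their paralogs (grey, stacked), in summed CPM per kilobase. In testes the Rpt3 family had 21.9 CPM per kb from the standard gene and 109 CPM per kb from its paralog; in ovaries paralogs made up at most 0.864% of a family.

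The levels of subunits of this complex were more even in ovaries than in testes. The SD of log2 CPM per kb over 31 genes was 0.34 to 0.64 in the 12 ovary libraries and 1.01 to 1.16 in the 12 testis libraries, with no overlap. The highest gene exceeded the lowest by 2.26 to 5.69 times within an ovary library and by 15.2 to 21.1 times within a testis library. Rpt3 was the lowest of the 31 in every testis library. The widest spreads among ovary libraries, 0.64, 0.60 and 0.56, belonged to the 3 libraries that stood apart. With the paralogs added to their families, the SD over the tissue means was 0.74 in testes, against 1.08 for the standard genes alone, and it was 0.43 in ovaries either way.

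The summed level of the 32 genes was 8327 ± 1170 CPM in ovaries and 6465 ± 209 CPM in testes (SD, n = 12 libraries each), a ratio of 1.29. That ratio followed the scaling and was 1.02 with RLE and 1.54 with total count. In tra2ts ovaries the sum was 9268 and 9051 CPM at 0 h, 6860 and 7249 CPM at 12 h, and 6437 and 10210 CPM at 24 h. In w1118 ovaries it was 9876 and 8482 CPM at 0 h, 7752 and 8759 CPM at 12 h, and 7744 and 8239 CPM at 24 h. The replicates of tra2ts ovaries at 24 h were thus the lowest and the highest of all ovary libraries. Testis sums stayed between 6171 and 6858 CPM.

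**Figure D4:**
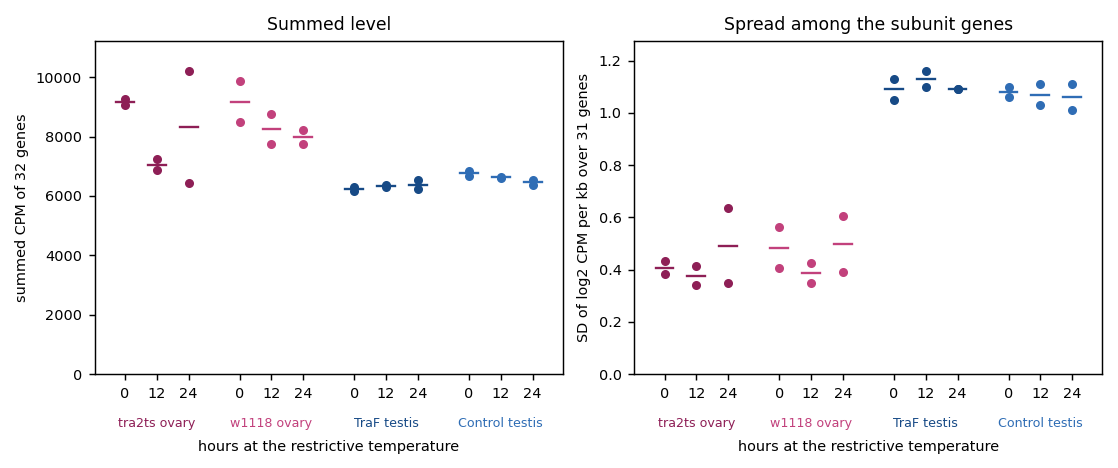
Left, summed CPM of the 32 subunit genes in each library; right, SD of log2 CPM per kilobase over 31 of them. Points are libraries and bars the means of 2, by genotype and hours at the restrictive temperature; ovary sums range from 6437 to 10210 CPM and testis sums from 6171 to 6858 CPM, and the spread is 0.34 to 0.64 in ovaries and 1.01 to 1.16 in testes.

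Subunit genes varied together over ovary libraries more than over testis libraries. Over the 12 ovary libraries the median Pearson correlation of log2 CPM between pairs of the 31 genes was 0.734 (465 pairs), and over the 12 testis libraries it was 0.195. Rpn12 followed the mean of the other subunit genes most closely in ovaries (r = 0.987), while Rpn2 (r = 0.234) and Rpn1 (r = 0.307) followed it least. In testes Rpt1 followed it most closely (r = 0.837), and Rpn6 (r = -0.595) and Rpn2 (r = -0.54) ran against it. Over the 9 ovary libraries other than the 3 that stood apart, the median pairwise correlation was 0.924, Rpn2 had r = 0.842 and Rpn1 r = 0.868, and the lowest was Rpn5 (r = 0.657). Because the 3 libraries were picked by Rpn1 and Rpn2, the higher r of these genes follows at least in part from that choice. The coefficients are descriptions over libraries that share their scaling. Levels also varied less in testes. The SD of log2 CPM over libraries was 0.047 (Rpn9) to 0.236 (Prosbeta5) in testes and 0.169 (Rpn13) to 0.417 (Prosalpha5) in ovaries. The part of this narrower variation in the lower correlations was not tested.

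The shift to the restrictive temperature was tested within each tissue, with both genotypes averaged. Prosalpha1 did not pass the filter on low counts, which left 31 subunit genes. In ovaries 0 of these 31 were called at 12 h against 0 h, where 2.32% of 8784 genes were called, and 0 were called at 24 h, where 3.9% were. At an unadjusted p under 0.05 there were 1 and 3, and DESeq2 called 0 at both times. At 12 h 30 of the 31 log2 values were below 0, with a median of -0.29, while the median of all genes was -0.012. At 24 h 27 were below 0, with a median of -0.18. Without the 3 libraries all 31 were below 0 at both times, and none was called. The 24 h median was -0.40 without tra2ts 24 h replicate 2, -0.0012 without tra2ts 24 h replicate 1 and -0.45 without the 3 libraries that stood apart. The summed level of 4 muscle markers was 462 to 1415 CPM at 0 h, 173 to 628 CPM at 12 h and 165 to 821 CPM at 24 h in ovaries. That of 5 hemocyte markers was 11.4 to 67.3 CPM at 0 h, 4.33 to 26.5 CPM at 12 h and 4.82 to 29.3 CPM at 24 h. Markers listed for fat body (Fbp1, Lsp2, Lsp1beta, Yp3) summed to 2447 to 3569, 3161 to 4501 and 2225 to 3600 CPM at these times. Yp3 is a yolk protein gene, as is Yp1 of the ovarian soma list, so in ovaries this sum is not particular to fat body. Ovarian soma markers summed to 16540 to 24250, 17360 to 32730 and 11920 to 28470 CPM. The part of these cell types in the subunit values was not tested.

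Prosbeta3 had the lowest p of the subunit genes in ovaries at 12 h. It had 275 and 278 CPM at 0 h, 176 and 196 CPM at 12 h, and 157 and 267 CPM at 24 h in tra2ts ovaries, and 292 and 280 CPM at 0 h, 193 and 233 CPM at 12 h, and 163 and 222 CPM at 24 h in w1118 ovaries. All 12 h values lay under all 0 h values, but the gene was not called (log2 -0.51, SE 0.201, adjusted p 0.21 at 12 h; log2 -0.45, SE 0.2, adjusted p 0.251 at 24 h, edgeR). Without tra2ts 24 h replicate 2 it was called at 24 h (log2 -0.71, adjusted p 0.047). Without the 3 libraries Prosbeta3 was called at neither time: its 12 h log2 was -0.51 (adjusted p 0.0644), and its 24 h log2 was -0.63 (adjusted p 0.0739). Prosbeta6 (log2 -0.36, adjusted p 0.295) and Prosbeta1 (log2 -0.45, adjusted p 0.346) came next at 12 h.

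At 24 h in ovaries the lowest p belonged to Rpn1 (log2 -0.43, SE 0.165, adjusted p 0.184, edgeR) and Rpt4 (log2 -0.42, SE 0.181, adjusted p 0.24, edgeR). Rpn1 had 491 and 428 CPM at 0 h, 370 and 342 CPM at 12 h, and 346 and 297 CPM at 24 h in tra2ts ovaries, and 479 and 378 CPM at 0 h, 413 and 394 CPM at 12 h, and 256 and 405 CPM at 24 h in w1118 ovaries. The 2 libraries lowest in Rpn1 at 24 h are among the 3 that stood apart. Without these 3, Rpn1 had a log2 of -0.35 (adjusted p 0.217) and Rpt4 one of -0.50 (adjusted p 0.092). Prosbeta2, Prosbeta5, Rpn10 and Rpn11 had adjusted p of 0.477 or more at both times in ovaries. Without the 3 their adjusted p were 0.178 or more, and the 24 h log2 of Prosbeta5 was -0.43 (adjusted p 0.245), against 0.20 over all libraries.

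In testes 0 of 31 subunit genes were called at 12 h against 0 h, where 3.53% of 12083 genes were, and 2 had an unadjusted p under 0.05. The lowest p were those of Prosbeta5 (log2 0.34, SE 0.097, adjusted p 0.0826), Rpn10 (log2 -0.27, adjusted p 0.157) and Rpt6 (log2 -0.17, adjusted p 0.306, edgeR). Prosbeta5 was called by DESeq2 (adjusted p 0.0286) and without Control 12 h replicate 2 (adjusted p 0.0499). At 24 h Prosbeta5 was called higher, where 6.79% of genes were, and Rpn1 and Rpn10 were called lower, where 5.43% were. Over the 31 genes the median log2 value was 0.00032 at 12 h and -0.019 at 24 h. Muscle markers summed to 606 to 718 CPM at 0 h, 505 to 721 CPM at 12 h and 334 to 607 CPM at 24 h in testes. Gut markers summed to 33.0 to 54.98, 44.3 to 91.7 and 62.8 to 134 CPM at these times, without overlap between 0 h and 24 h. Hemocyte markers summed to 25.6 to 40.9, 45.9 to 56.2 and 36.5 to 74.4 CPM. Accessory gland markers summed to 3.44 to 6.58 CPM at 0 h, 7.99 to 2154 CPM at 12 h and 11.2 to 13.7 CPM at 24 h. Fat body markers summed to 41.4 to 53.4 CPM at 0 h and 32.8 to 43.6 CPM at 24 h. The part of these cell types in the calls that follow was not tested.

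Prosbeta5 had 56.2 and 55.4 CPM at 0 h, 76.0 and 75.8 CPM at 12 h, and 86.3 and 83.0 CPM at 24 h in TraF testes. In Control testes it had 70.8 and 64.3 CPM at 0 h, 88.0 and 74.4 CPM at 12 h, and 91.4 and 79.4 CPM at 24 h. In each genotype both 24 h libraries lay above both 0 h libraries (log2 0.46, SE 0.097, adjusted p 0.0123, edgeR). Any of 4 libraries, when left out, ended its call: replicate 2 of both genotypes at 0 h and replicate 1 of both at 24 h (adjusted p 0.0501 to 0.0611).

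Rpn1 had 226 and 221 CPM at 0 h, 171 and 195 CPM at 12 h, and 170 and 166 CPM at 24 h in TraF testes. In Control testes it had 240.1 and 225 CPM at 0 h, 210 and 229 CPM at 12 h, and 192 and 161 CPM at 24 h. All 4 libraries at 24 h lay under all 4 at 0 h (log2 -0.41, SE 0.0999, adjusted p 0.0229, edgeR). The call was lost with total count scaling (adjusted p 0.0634), when any library but Control 24 h replicate 1 was left out (adjusted p up to 0.0979), and without both Control testis 12 h replicate 1 and 0 h replicate 1 (adjusted p 0.0518).

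Rpn10 had 364 and 344 CPM at 0 h, 285 and 284 CPM at 12 h, and 280 and 263 CPM at 24 h in TraF testes. In Control testes it had 400.4 and 360 CPM at 0 h, 311 and 348 CPM at 12 h, and 285 and 293 CPM at 24 h. Again all 24 h libraries lay under all 0 h libraries (log2 -0.40, SE 0.0966, adjusted p 0.023, edgeR). The call was lost with total count scaling (adjusted p 0.0516) and when any library but the replicate 2 libraries of 0 h was left out (adjusted p up to 0.0913). Prosbeta2 (log2 0.31, adjusted p 0.111), Rpn11 (log2 0.15, adjusted p 0.298) and Prosbeta1 (log2 0.018, adjusted p 0.95) were not called.

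**Figure D5:**
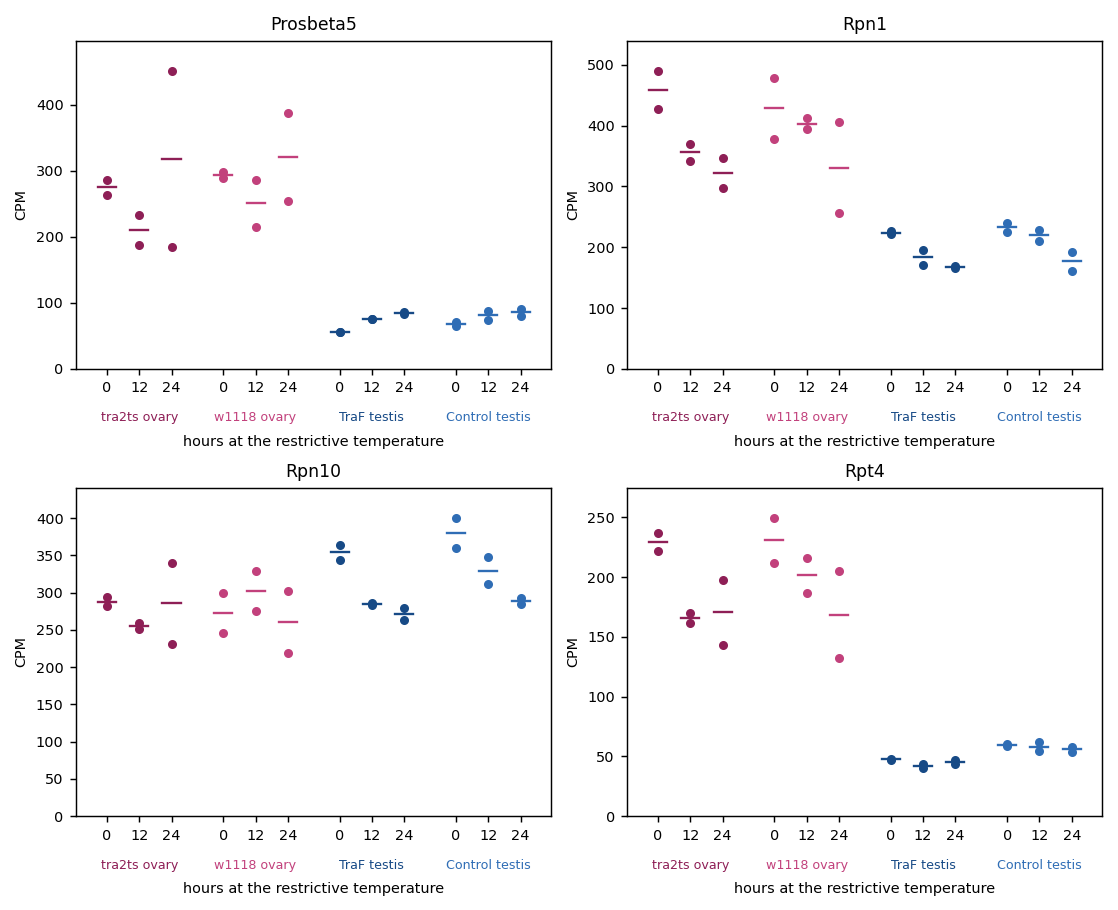
CPM of Prosbeta5, Rpn1, Rpn10 and Rpt4 in each library, by genotype and hours at the restrictive temperature; points are libraries and bars the means of 2. In testes Prosbeta5 was between 55.4 and 70.8 CPM in the 4 libraries at 0 h and between 79.4 and 91.4 CPM in the 4 at 24 h, and Rpt4 was 40.1 to 48.0 CPM in TraF and 54.0 to 62.0 CPM in Control.

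The response to the shift was also compared between tissues, as the ovary change minus the testis change. No subunit gene was called at 12 h or at 24 h, where 2.76% and 4.75% of all genes were called; at an unadjusted p under 0.05 there were 2 and 4, and DESeq2 called 0 at both times. At 12 h the lowest p were those of Prosbeta3 (log2 -0.57, adjusted p 0.212), Prosbeta5 (log2 -0.66, adjusted p 0.294) and Prosbeta2 (log2 -0.41, adjusted p 0.347, edgeR). At 24 h they were those of Prosbeta2 (log2 -0.52, adjusted p 0.155), Prosbeta3 (log2 -0.58, adjusted p 0.16) and Rpn8 (log2 -0.39, adjusted p 0.287, edgeR). Leaving out tra2ts ovary 24 h replicate 2 gave 3 calls at 24 h, Prosbeta2 (adjusted p 0.0313) and Prosbeta3 (adjusted p 0.0189) among them, each lower in ovary, where 3.16% of all genes were called lower. Leaving out all 3 ovary libraries gave 6 calls, each lower in ovary, where 3.61% of all genes were called lower. The 6 were Prosbeta2, Prosbeta3, Prosbeta5, Rpn3, Rpn9 and Rpn11, with adjusted p of 0.0202 to 0.05.

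Genotypes were compared within each tissue over the 3 times. In ovaries, tra2ts against w1118, 0 of 31 subunit genes were called and 0 had an unadjusted p under 0.05, against 4.02% of all genes called; DESeq2 also called 0. The lowest p belonged to Rpt5 (log2 0.23, SE 0.142, adjusted p 0.617), Prosbeta1 (log2 -0.31, SE 0.191, adjusted p 0.634) and Rpn6 (log2 -0.21, SE 0.137, adjusted p 0.667, edgeR). Prosbeta2, Prosbeta5, Rpn10 and Rpn11 had log2 values between -0.11 and 0.015. The median over the 31 genes was -0.048 and over all genes -0.0018. The subunit median was 0.066 without tra2ts 24 h replicate 1, -0.18 without tra2ts 24 h replicate 2 and -0.25 without the 3 libraries that stood apart, where 30 of 31 values were below 0 and none was called. Without those 3, Rpt5 had a log2 of 0.024, Prosbeta1 one of -0.43 and Rpn6 one of -0.33.

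In testes, TraF against Control, 1 of 31 subunit genes was called, the ATPase Rpt4, which was lower in TraF; 3.06% of genes were called lower. Rpt4 had 48.0 and 46.9 CPM at 0 h, 40.1 and 43.6 CPM at 12 h, and 47.3 and 43.4 CPM at 24 h in TraF testes. In Control testes it had 59.0 and 60.7 CPM at 0 h, 62.0 and 54.1 CPM at 12 h, and 54.0 and 58.0 CPM at 24 h. All 6 TraF libraries lay under all 6 Control libraries (log2 -0.36, SE 0.0746, adjusted p 0.0161, edgeR). Any of 5 libraries, when left out, ended the call: TraF 12 h replicate 1 and replicate 2 of both genotypes at 0 h and at 24 h (adjusted p 0.0514 to 0.0653). It was also lost without Control 12 h replicate 1 and 0 h replicate 1 together (adjusted p 0.0558). The 0 h libraries already differed, before the shift. Rpn11 (log2 -0.18, adjusted p 0.205) and Rpn3 (log2 -0.18, adjusted p 0.258) came next and were not called. Prosbeta1, Prosbeta2, Prosbeta5 and Rpn10 had log2 values between -0.13 and -0.068.

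The switch of DSX isoform was tested as the genotype difference in change from 0 h. In ovaries 0 subunit genes were called at 12 h and 24 h, where 0% of all genes were called at either time. In testes 0 were called at 12 h and 24 h, where 0.00828% of genes, 1 of 12083, were called at each time. In all 4 comparisons 0 subunit genes had an unadjusted p under 0.05, and DESeq2 called 0. At 12 h in ovaries all 31 log2 values were below 0, with a median of -0.18. That median was -0.068 without the 3 libraries that stood apart, with 26 below 0, -0.054 without w1118 12 h replicate 2 and -0.085 without tra2ts 12 h replicate 1 or w1118 0 h replicate 2. At 24 h 27 were above 0, with a median of 0.11; the 24 h median was -0.30 without tra2ts 24 h replicate 2, 0.46 without tra2ts 24 h replicate 1, -0.018 without w1118 0 h replicate 1 and -0.21 without the 3 libraries that stood apart. In testes 21 of 31 were above 0 at 12 h and 26 at 24 h, with medians of 0.054 and 0.076. The 12 h and 24 h values share their 0 h libraries.

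The lowest p of the ovary switch were those of Rpn2 (log2 -0.33, SE 0.332), Rpn5 (log2 -0.33, SE 0.348) and Rpn6 (log2 -0.29, SE 0.335) at 12 h, and of Prosbeta6 (log2 0.25, SE 0.339), Prosalpha5 (log2 0.37, SE 0.586) and Rpn2 (log2 -0.21, SE 0.332) at 24 h. Leaving out 1 library at a time moved the 12 h values of Rpn2 over -0.62 to -0.082, of Rpn5 over -0.70 to -0.023 and of Rpn6 over -0.56 to -0.052. Without the 3 libraries they were -0.062, -0.0030 and -0.032. In testes the lowest p were those of Prosbeta1 (log2 0.28, SE 0.219), Rpn1 (log2 -0.21, SE 0.199) and Prosbeta6 (log2 0.17, SE 0.183) at 12 h, and of Prosbeta5 (log2 0.23, SE 0.194), Prosbeta7 (log2 0.15, SE 0.178) and Prosbeta1 (log2 0.18, SE 0.219) at 24 h. All of them had an adjusted p of 1 with edgeR. With standard errors of this size, small switch effects on subunit genes were not detectable at n = 2.

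Genes that work with the proteasome were taken from a list of 23, of which 19 were found by symbol. Between control genotypes 8 were higher in ovary and 9 lower, and between experimental genotypes also 8 and 9, against the shares of all genes given above. The largest differences were in ubiquitin genes and regulators. The gene ntc, for an F-box protein known for its part in caspase activation in spermatids, had 10.2, 12.4 and 13.8 CPM in w1118 ovaries and 283, 335 and 405 CPM in Control testes (log2 -4.82, SE 0.149). In the later annotation, 639 of its 1572 bases of exon overlap CG32264 on the same strand. How reads there were counted is not given. PI31, a proteasome regulator that ntc binds, was lower in ovary too (log2 -2.92, SE 0.115). The polyubiquitin gene Ubi-p63E had 123, 139 and 171 CPM in w1118 ovaries and 1530, 1740 and 1810 CPM in Control testes (log2 -3.60, SE 0.14). RpS27A, which encodes ubiquitin fused to a ribosomal protein, was higher in ovary, at 1917, 2416 and 3750 CPM in w1118 ovaries and 251, 340 and 480 CPM in Control testes (log2 2.93, SE 0.216).

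Within tissues, 1 gene of this list was called in each of 2 comparisons. The polyubiquitin gene Ubi-p5E was lower in tra2ts ovaries than in w1118 ovaries, averaged over the times (log2 -0.51, SE 0.117, adjusted p 0.0413, edgeR). It already differed at 0 h, before the shift, with 380 and 330 CPM in tra2ts ovaries and 597 and 543 CPM in w1118 ovaries. At 24 h it had 325 and 374 CPM in tra2ts ovaries and 418 and 434 CPM in w1118 ovaries. Pngl, a deglycosylating enzyme, was higher in ovaries at 24 h than at 0 h (log2 0.80, SE 0.148, adjusted p 0.0208, edgeR), with 42.2 and 36.5 CPM at 0 h and 67.6 and 64.2 CPM at 24 h in tra2ts ovaries, and 39.1 and 37.4 CPM at 0 h and 77.7 and 57.6 CPM at 24 h in w1118 ovaries. Its exons overlap those of Strica on the other strand. No gene of the list was called in the testis genotype or shift comparisons, or in any switch.

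The genes outside the list whose log2 CPM most resembled the mean of the subunit genes were, over all 24 libraries, mRpL18 (r = 0.977), eIF2Bbeta (r = 0.974), mRpL11 (r = 0.965), Enoph (r = 0.964) and Got2 (r = 0.963). Over the 12 ovary libraries they were Got1 (r = 0.954), Txl (r = 0.95), grsm (r = 0.929), Gclm (r = 0.924) and mRpL18 (r = 0.921), and over the 9 other than the 3 that stood apart these 5 had r of 0.947 to 0.963. Over the 12 testis libraries they were CG10375 (r = 0.952), dgt2 (r = 0.944), CG14434 (r = 0.93), san (r = 0.929) and CG14811 (r = 0.921). The gene mRpL18 appears both in the list over all libraries and in that over ovaries. The coefficients are Pearson's, picked as the highest of all genes, and the libraries share scaling and depth.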

How the data were processed

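Each library has 1 deposited file of read counts by gene, as the authors counted them, without normalization. Per the submitters' processing notes, TopHat 1.4.1 and HTSeq were used with genome build dm3; the HTSeq version, its mode and the annotation release are not given in the sources used here. Per the labels' protocols, libraries were made from 200 ng of total RNA with a kit that does not mark strand and read as 76 bp single ends, so reads from overlapping genes on opposite strands cannot be told apart; HTSeq's 5 summary lines were left out.

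Differences were fitted with edgeR 4.0.16 under R 4.3.3 (filterByExpr by group, TMM, glmQLFit, glmQLFTest, two-sided, a mean per group), with 8784 genes tested over 12 ovary libraries, 12083 over 12 testis libraries and 12411 over all 24. DESeq2 1.42.0 was an alternative. Standard errors are the log2 fold change over the root of F. The pipeline was tested on simulated counts. Exonic lengths came from a later annotation matched by identifier; symbols were found for 14732 of 15406 identifiers. Figures were drawn with matplotlib 3.10.9. Precision is limited by 2 libraries per group, and the limit for a count of 0 (3 counts) covers counting error only.

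The subunit genes, the partner and marker lists and the tests were chosen with earlier results of these data known. In each comparison the called members with the 4 largest rises and falls are named, or, with under 3 called, the 3 of lowest p, and always Prosbeta1, Prosbeta2, Prosbeta5, Rpn10 and Rpn11. Alternatives were RLE and total count scaling, no filter, DESeq2, a replicate block and leaving out each library; leaving out 3 ovary or 2 Control testis libraries was added after the data were seen. A promoter motif search was planned and not run here.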

Additional observations from a re-analysis of the deposited data

Results flagged for a closer look

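For the paralog Rpt3R the change with the temperature shift was called different between ovaries and testes at 24 h. It was the 1 called of 14 paralogs tested, where 4.75% of all genes were called. In ovaries it had few reads, 18 to 44 per tra2ts library and 16 to 57 per w1118 library. Its change at 24 h against 0 h was higher in ovaries than in testes by a log2 of 1.23 (SE 0.234, adjusted p 0.00494, edgeR), the tested difference of the changes that singled it out. In ovaries Rpt3R had 0.826 and 0.739 CPM at 0 h and 1.06 and 1.84 CPM at 24 h in tra2ts, and 0.777 and 0.673 CPM at 0 h and 1.68 and 2.01 CPM at 24 h in w1118. All 4 ovary libraries at 24 h lay above all 4 at 0 h, but within ovaries the change was not called (log2 1.14, adjusted p 0.0649). In testes Rpt3R ranged from 138 to 192 CPM and was not called either (log2 -0.14, adjusted p 0.527). The standard gene Rpt3 was not called in this comparison.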

How the results depend on the processing

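Among the named genes, 943 of the values under other settings kept direction and side of the threshold, 53 lost a call, 11 gained one and 7 changed direction; the cause was not tested. In testes Rpt4 was the only subunit gene called between genotypes (a count of 1), and that call was lost without the 2 Control testis libraries. For the testis shift at 12 h the count was 1 with DESeq2, and at 24 h it was 1 with total count scaling. For the shift compared between tissues at 24 h it was 6 without the 3 ovary libraries. The summed level ratio was 1.02 with RLE and 1.54 with total count scaling. Leaving out 1 library at a time gave counts of 0 to 1 for the testis genotype, 0 to 1 for the ovary shift at 24 h, 0 to 1 for the testis shift at 12 h and at 24 h, 0 to 3 for the shift between tissues at 24 h, 21 to 23 for tissue in control genotypes, 21 to 27 in experimental ones, and 0 throughout for the ovary genotype, the ovary shift at 12 h, the shift between tissues at 12 h and the 4 switches. The ratio was then 1.27 to 1.33. In the ovary switch at 24 h the range was -0.048 to 0.52 for Prosbeta6, -0.55 to 0.94 for Prosalpha5 and -0.51 to 0.035 for Rpn2. Without the 3 ovary libraries Prosbeta6 was at -0.21 and Prosalpha5 at -0.27. Rpn10 in the experimental tissue comparison was at 0.19 with total count scaling. Depth limits Prosalpha1, at 2 to 13 reads per library. Shares of all genes called under each setting are not given in this paragraph, so its counts describe the subunit genes only.

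With the replicate number as a block, 1 subunit gene was called in the testis shift at 12 h and 4 at 24 h. The share of all genes called with the block is not given here, so these counts describe the subunit genes only. Other counts of calls did not move with the block. The numbers share no stated litter or day. Deviations of same-numbered libraries correlated at -0.536 to 0.522 between ovary groups (median 0.251) and at -0.0507 to 0.405 between testis groups (median 0.2). Most of these correlations were positive, and whether same-numbered libraries share a batch was not tested. The main fits did not take the number as a pairing.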

Other observations

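Reads of the lid paralog Rpn12R differed between the ovary genotypes. The 6 tra2ts ovary libraries held 32 to 112 reads of it (median 90), and the 6 w1118 ovary libraries held 0 or 1. The ranges did not overlap, and tra2ts libraries of all 3 times, 0 h included, held reads. The gene passed the filter on low counts only through the tra2ts libraries and is set against a group at or near 0, so no test or fold is given. Testis libraries held 2782 to 5460 reads in TraF and 2654 to 4560 in Control. The spermatid markers summed to at most 0.224 CPM in ovary libraries. The standard gene Rpn12 had 131, 182 and 249 CPM as lowest, median and highest in tra2ts ovaries and 166, 190 and 225 CPM in w1118 ovaries.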
